A study of Mus musculus with 4 samples.

Results

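Cells of injured Achilles tendon from neonatal mice were compared with cells of injured Achilles tendon from adult mice. The injured neonate library came from mice at postnatal day 3 and the injured adult library from mice aged 6 to 8 weeks. The uninjured library of each age, from P3 and from 6 to 8 weeks, was used for reference. All 4 libraries were made from tendon digested with collagenase and DNase and run on droplet-based single-cell RNA sequencing, which counts unique molecular identifiers (UMIs) per gene and cell barcode. The labels give no strain, sex, number of mice or time between injury and harvest, do not say how the injury was made, and do not say whether the stated age is that at injury or at harvest. With 1 library per group, nothing below has a replicate check and no test was run. Intervals in square brackets are exact 95% intervals that cover counting error only.

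A barcode was kept when it had 500 genes or more, 1000 UMIs or more and no more than 15% of its UMIs from mitochondrial genes. Kept barcodes numbered 14885 of 16327 in the injured neonate and 4625 of 5003 in the injured adult library, of 36052 kept barcodes in all 4 libraries. Cells were then taken by a few genes each. The fibroblast gate asked for at least 1 UMI of Pdgfra, at most 1 of Ptprc and 0 of Cdh5. The macrophage gate asked for at least 5 UMIs of C1qa, C1qb and C1qc together, and the endothelial gate for at least 2 UMIs of Cdh5 and Pecam1 together. The gates held 5795, 1408 and 1918 barcodes of the injured neonate and 1509, 1251 and 971 of the injured adult. They held 4645, 365 and 832 of the uninjured neonate and 2459, 179 and 1280 of the uninjured adult. Of the kept barcodes of both libraries, 12163 passed at least 1 gate.

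Tendon is built by fibroblasts, among them the tenocytes that lay down aligned collagen under the transcription factors Scx and Mkx. After injury, fibroblasts can divide, take up contractile proteins and secrete provisional matrix, macrophages clear debris and send growth factors and cytokines, and endothelial cells form new vessels. Neonatal mouse tendon is known to heal with more tissue regeneration and adult tendon with more scar.

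The makeup of the gates was described by the marker genes fixed for each cell type. Fibroblast markers (Pdgfra, Col1a1, Col1a2, Dcn, Lum) summed to 58355 counts per 1000000 UMIs of the gate (CPM) in the fibroblast gate of the injured neonate and 49415 CPM in that of the injured adult. Macrophage markers summed to 7312 and 5158 CPM in the macrophage gate, and endothelial markers to 4879 and 2500 CPM in the endothelial gate. These sums hold the gate genes themselves (Pdgfra, the C1q genes, Cdh5 and Pecam1), so high values in the own gate were in part set by the gates. Of markers outside the gates, Csf1r was at 650 and 413 CPM in the macrophage gate. Kdr was at 495 and 288 CPM in the endothelial gate. RNA of other cells was present in each. Fibroblast markers reached 7974 and 10529 CPM in the macrophage gate and 17465 and 22945 CPM in the endothelial gate. Erythroid markers were at 1364 and 11.4 CPM in the fibroblast gate, 2864 and 61.8 CPM in the macrophage gate and 2790 and 193 CPM in the endothelial gate. Schwann cell markers in the fibroblast gate were at 226 and 7.35 CPM, and synovial lining markers, led by Prg4, at 75.7 and 481 CPM. The part of these in the results was not tested.

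Further differences between the libraries bear on every comparison. The median depth in the fibroblast gate was 7190 UMIs in the injured neonate and 22173 UMIs in the injured adult, against 5027.5 and 7947 in the macrophage gate and 6908 and 9745 in the endothelial gate. In the fibroblast gate, cells that held Xist but no Y-linked RNA (called Xist cells below) were 76.7% in the injured neonate and 93.3% in the injured adult. Cells that held Y-linked RNA but no Xist (Y cells) were 14.5% and 0.0663%. The uninjured neonate library had 0.0215% and 90.0% of such cells in the same gate and the uninjured adult 96.7% of Xist cells. Age and sex therefore cannot be told apart in the uninjured pair. In the injured pair the ratios were also computed among Xist cells alone. The injured libraries shared 15 cell barcodes. Barcodes with a UMI of Tnmd, a tenocyte marker, lay in the fibroblast gate in 44.3% of cases in the injured neonate and 51.6% in the injured adult, so a Pdgfra gate takes part of the tenocytes.

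Macrophages took a larger share of barcodes in the injured adult than in the injured neonate. The macrophage gate held 9.46% [8.99, 9.94] of kept barcodes in the injured neonate and 27.0% [25.8, 28.4] in the injured adult. Gates that rest on a UMI count take more cells at greater depth, so each barcode was also thinned to 2000 UMIs, which kept the 13761 and 4246 barcodes deep enough. The macrophage shares were then 8.31% [7.86, 8.79] and 20.3% [19.1, 21.5]. In the uninjured neonate and adult libraries the thinned shares were 3.22% and 2.87%.

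The fibroblast gate held 38.9% [38.1, 39.7] of barcodes in the injured neonate and 32.6% [31.3, 34] in the injured adult, or 22.3% [21.6, 23] and 15.4% [14.4, 16.5] after thinning. With at least 2 UMIs of Pdgfra and 0 of Ptprc the order was the opposite, at 22.8% and 24.4%. This stricter gate was set at each library's own depth and was not thinned. Gate and depth therefore cannot be told apart in this turn. The endothelial gate held 12.9% [12.4, 13.4] and 21.0% [19.8, 22.2], or 9.08% [8.60, 9.57] and 12.6% [11.6, 13.6] after thinning. The endothelial order turned, also at own depth, when Cdh5 was required and any UMI of Ptprc or C1q excluded. The shares were then 9.35% in the injured neonate and 7.91% in the injured adult. Shares are of sequenced barcodes after digestion, and the share of one type moves with those of the others.

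**Figure D1:**
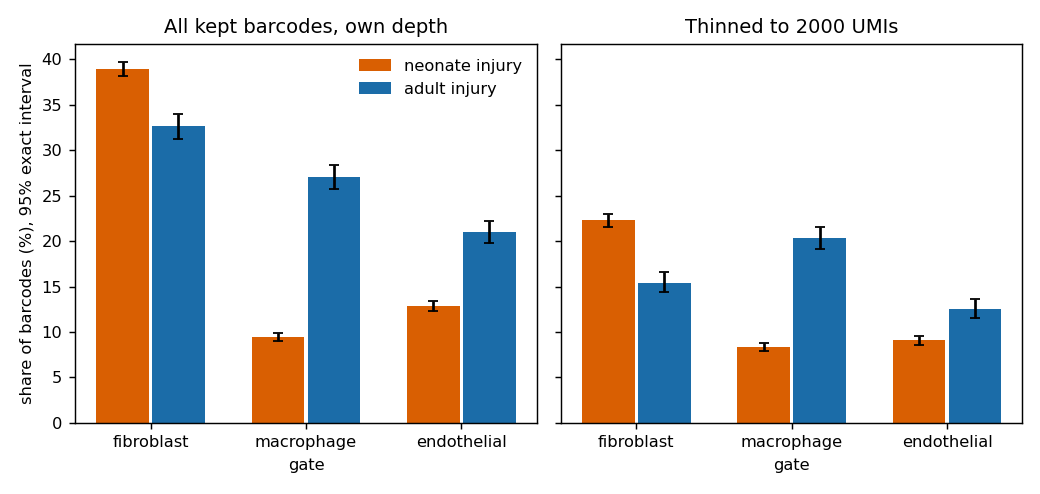
Share of kept barcodes in each gate (y axis, percent, from 0) for the injured neonate (orange) and injured adult (blue) libraries, at their own depth and after thinning to 2000 UMIs. Bars are single libraries and whiskers exact 95% binomial intervals. The macrophage bars stand at 9.46% and 27.0% on the left and at 8.31% and 20.3% on the right.

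UMIs were then summed over the cells of a gate in each library and given as CPM. A gene counted as measured with 10 CPM or more in the library where it was higher and 20 UMIs or more in the pair, and as apart when the CPM differed at least 2-fold. In the fibroblast gate 496 of 9419 measured genes (5.27%) were at least 2-fold higher in the injured neonate and 544 (5.78%) at least 2-fold higher in the injured adult. Log2 ratios below are injured neonate over injured adult, so negative values mean a higher level in the adult. The median gene stood at -0.10 in the fibroblast gate, -0.12 in the macrophage gate and -0.11 in the endothelial gate, a shift to be read into each ratio. Because the filter needs 10 CPM in the higher library alone, weakly expressed genes enter mainly when they differ, and list counts below are of measured members. Each such count is to be read beside the share over all measured genes of its gate. A count near that share says little about the list.

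Between the uninjured libraries the fibroblast gates differed more, with 1275 of 9715 genes (13.1%) at least 2-fold higher in the neonate and 953 (9.81%) higher in the adult. Over the 8918 genes measured in both pairs, 205 genes were neonate-high in both, which is 45.9% of the 447 found after injury and 19% of the 1078 found without injury. Another 111 genes were adult-high in both, 25.6% of 434 and 15.5% of 715. Of the 434 genes that were adult-high after injury, 138 (31.8%) were at least 2-fold neonate-high without injury, and 51 of the 447 neonate-high genes (11.4%) were adult-high without it. Of the same 8918 genes, 1078 were neonate-high and 715 adult-high without injury, so the 11.4% lies not far above the share of all genes. The injured and uninjured pairs share no library.

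Most measured genes of the activated, contractile fibroblast were higher in the injured adult. Of 18 measured members of this list, 11 were at least 2-fold higher in the adult and 0 in the neonate, with a median log2 ratio of -1.15. Without injury the order was opposite, with 8 of 17 measured members neonate-high, 2 adult-high and a median of 0.90. Acta2, smooth muscle actin and the usual myofibroblast marker, was at 79.4 CPM in the injured neonate and 519 CPM in the injured adult, a log2 ratio of -2.71 [-2.76, -2.66]. A UMI of Acta2 was found in 6.96% of thinned fibroblasts in the neonate and 30.2% in the adult. In the uninjured libraries Acta2 was at 178 CPM in the neonate and 108 CPM in the adult. The injured neonate was thus the lowest of the 4 libraries for this gene and the injured adult the highest. Without cells that held at least 2 UMIs of G2M genes (below, without cells with G2M UMIs) the Acta2 ratio was -2.09. This cut was made at each library's own depth. It took 678 of 1509 fibroblasts of the injured adult and 586 of 5795 of the injured neonate. Depth and division are therefore not separated in any ratio given without these cells.

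The actin-binding gene Tagln had a log2 ratio of -2.37 [-2.44, -2.30], from 45.2 CPM in the neonate and 233 CPM in the adult. Kif26b, a kinesin-family gene, was at 16.8 CPM in the injured neonate, 165 CPM in the injured adult, 4.79 CPM in the uninjured neonate and 1.09 CPM in the uninjured adult. Both uninjured libraries lay below both injured ones for Kif26b, and the log2 ratio of the injured libraries was -3.29 [-3.40, -3.18]. Within the injured neonate, however, Kif26b was at 3.66 CPM in Y cells and 19.3 CPM in Xist cells, and the uninjured neonate held mainly Y cells. Between the neonatal libraries, injury therefore cannot be told apart from sex or animal for this gene. Periostin (Postn), a matrix protein of growing and healing tissue, and Cthrc1 were nearer to each other, with ratios of -0.51 and -0.13. Both were named after their values were seen. Postn was at 3629 and 5176 CPM after injury, against 2898 CPM in the uninjured neonate and 127 CPM in the uninjured adult.

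**Figure D2:**
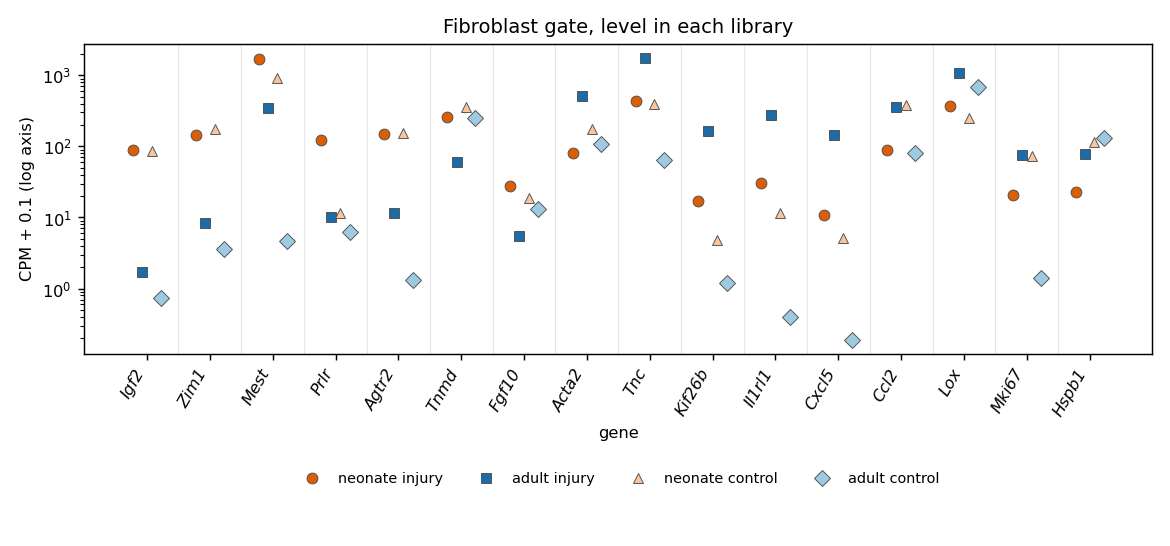
Level of 16 genes in the fibroblast gate of each library (y axis, CPM plus 0.1 on a log axis; x axis, genes), 1 point per library: injured neonate (orange circles), injured adult (blue squares), uninjured neonate (pale triangles) and uninjured adult (pale diamonds). Igf2 and Zim1 are high in both neonatal libraries, Prlr in the injured neonate at 122 CPM, and Il1rl1 and Cxcl5 in the injured adult at 275 and 146 CPM.

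Collagen genes were close between the injured libraries, while several enzymes that crosslink collagen were higher in the adult. Of 12 genes for collagens that build or coat fibrils, 2 were neonate-high and 2 adult-high, each by 2-fold or more, with a median of 0.01. Without injury the median was 1.44 and 9 of 12 were neonate-high. Col14a1, a fibril-associated collagen, was at 1303 and 576 CPM (1.18 [1.16, 1.20]), and Col5a3 went the other way at 271 and 872 CPM (-1.69 [-1.72, -1.66]). Col14a1 and Col11a1 (1.07 [1.04, 1.10]) were just past 2-fold: Col14a1 was at 0.69 without cells with G2M UMIs and Col11a1 at 0.77 with the stricter gates.

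Of 18 measured collagen-processing genes, 5 were at least 2-fold higher in the adult and 0 in the neonate (median -0.45). Among the named ones, Lox, the enzyme that starts collagen crosslinks, was at 373 and 1089 CPM (-1.55 [-1.57, -1.52]). Its relatives Loxl2 (-1.31 [-1.35, -1.28]) and Loxl3 (-1.85 [-1.93, -1.77]) and the lysyl hydroxylase Plod3 (-1.23 [-1.32, -1.14]) had the same order. In the uninjured pair the Lox ratio was -1.43, while Loxl3 was at -0.23. Among 14 measured matrix proteases and inhibitors, 4 were adult-high and 0 neonate-high. These were Mmp3 (-2.96 [-3.18, -2.76]), which degrades matrix proteins, the inhibitor Timp1 (-2.30 [-2.35, -2.25]), the collagenase Mmp13 (-2.27 [-2.60, -1.97]) and Mmp19 (-1.78 [-1.88, -1.69]). The proteoglycan list held 1 adult-high member of 13, near the 5.78% of all measured genes in the gate. This was Prg4, the lubricant of the synovial lining, at 46.3 and 471 CPM (-3.35 [-3.42, -3.28]). Prg4 is itself a marker of the synovial lining cells given above.

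Tendon genes were divided. Of 13 measured members, 5 were at least 2-fold higher in the injured neonate and 4 in the injured adult, with a median of 0.66. In the uninjured pair 9 of 14 were adult-high and 0 neonate-high, with a median of -2.20. For the 3 tendon genes not exceeded in other cells of the library the injured median was -1.30. Tnmd, a membrane protein of mature tenocytes, was at 259 CPM in the injured neonate and 59.7 CPM in the injured adult (2.12 [2.05, 2.18]), against 353 and 251 CPM in the uninjured neonate and adult. The injured adult stood alone at the low end for Tnmd. A UMI of Tnmd was found in 18.3% of thinned fibroblasts in the injured neonate and 6.16% in the injured adult. Tnmd was also seen in 3.20% and 2.25% of thinned macrophages, which should lack it.

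The transcription factor Scx, the early marker of the tendon lineage, was at 70.8 and 56.7 CPM (0.32 [0.24, 0.40]), within 2-fold. Col22a1, a collagen of tissue junctions, was at 27.2 and 5.48 CPM (2.31 [2.10, 2.53]), with 1.46 when each cell was weighted equally. Angptl7 and Chad, both matrix-related secreted proteins, were adult-high at -2.56 [-2.72, -2.41] and -2.26 [-2.46, -2.06]. They were far from their levels in uninjured adult fibroblasts: Angptl7 was at 9.11, 53.8, 4.37 and 4661 CPM in the injured neonate, injured adult, uninjured neonate and uninjured adult. Chad was at 6.02, 28.8, 21.6 and 1986 CPM in that order. The uninjured adult was thus the high library for both genes and the other libraries lay far below it. With each cell weighted equally the Chad ratio was -3.18, and without cells with G2M UMIs the Angptl7 ratio was -3.38. The same holds for genes named because their age ratio was furthest above the uninjured one. Clu, a secreted chaperone, was at 17.5, 20.8, 19.3 and 1383 CPM, and C7, a complement component, at 0.963, 1.80, 0.0652 and 75.4 CPM.

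Chemokines and related inflammatory genes leaned to the injured adult, with exceptions. Of 18 measured members, 10 were at least 2-fold higher in the adult and 3 in the neonate (median -1.05). Cxcl5, which attracts neutrophils, was at 10.9 CPM in the injured neonate and 146 CPM in the injured adult (-3.75 [-3.89, -3.62]), with 1.60% and 13.5% of thinned fibroblasts holding a UMI. Without cells with G2M UMIs the ratio was -2.95. Cxcl5 was at 4.98 and 0.0908 CPM in the uninjured neonate and adult, so the order of the ages was opposite without injury. Il1rl1, the receptor of interleukin-33, was at 30.8 and 275 CPM (-3.16 [-3.24, -3.08]) after injury and 11.6 and 0.303 CPM without, and was seen in 3.05% and 22.2% of thinned fibroblasts. Ptgs2, the inducible prostaglandin synthase, stood at 67.7 and 355 CPM (-2.39 [-2.45, -2.34]).

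The list's neonate-high members were Cxcl10 (1.47 [1.39, 1.55]), Ccl11 (1.47 [1.31, 1.63]) and the cytokine gene Il6 (1.32 [1.25, 1.39]), all 3 named after their values were seen. Il6 was at 138 CPM in the injured neonate, 55.2 CPM in the injured adult, 324 CPM in the uninjured neonate and 36.6 CPM in the uninjured adult. The monocyte attractant Ccl2, also added after its values were seen, was highest in the injured adult and the uninjured neonate, at 356 and 381 CPM, and was at 89 CPM in the injured neonate. Stromal complement genes were adult-high for 3 of 9 measured members and neonate-high for 0, led by C3 at 17 and 110.0 CPM (-2.69 [-2.80, -2.58]). Among Xist cells the C3 ratio was -3.87. Interferon response genes were within 2-fold for each of 11 measured members (median -0.28).

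Other genes named by size as highest in the injured adult were the secreted phosphoprotein gene Spp1, the latent TGF-beta binding protein gene Ltbp2, Ccn5, Gpr176, F2rl1, Hhipl1 and Chl1, with log2 ratios from -4.20 for Spp1 to -2.80 for Chl1. Spp1 was at 16.4 and 301 CPM in fibroblasts, but at up to 1518 CPM in other cells of the injured adult library, and the part of RNA from those cells was not tested. Ltbp2 (10.1 and 110.2 CPM) was at most at 55.7 CPM in the other cells of that library. Ltbp2, Ccn5 and Hhipl1 were adult-high without injury as well (-2.43, -4.13 and -2.74). Without cells with G2M UMIs Spp1 was at -3.45 and Gpr176 at -2.54. Of the 544 adult-high genes of the fibroblast gate, 239 (43.9%) were not exceeded in other cells of the library, and of the 496 neonate-high genes 215 (43.3%). Over all measured genes of the gate it was 2803 of 9419.

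Imprinted growth genes, which are expressed from 1 parental allele and are mostly shut down after birth, had the highest median of the 20 lists in the fibroblast gate. Of 16 measured members, 12 were at least 2-fold higher in the neonate and 0 in the adult (median 1.87). Igf2, a fetal growth factor, was at 88.5 CPM in the injured neonate and 1.59 CPM in the injured adult (5.79 [5.43, 6.19]), and at 86.2 and 0.636 CPM in the uninjured neonate and adult. Zim1 (4.13 [3.96, 4.30]), the zinc-finger neighbour of Peg3, Usp29 (5.52 [4.70, 6.66]) and the cell cycle inhibitor Cdkn1c (2.58 [2.52, 2.63]) followed. With gates set after thinning Igf2 and Usp29 were at 6.51 and 8.74. The gap between the ages was smaller after injury than without it, where the median was 4.55 and 16 of 17 members were neonate-high. For Mest, named after its values were seen, the injured adult was at 347 CPM and the uninjured adult at 4.63 CPM, while the neonatal libraries were at 1704 and 916 CPM. H19, a long noncoding RNA also added after its values were seen, was at 1251 and 9.32 CPM in the injured and uninjured adult and at 3016 and 1999 CPM in the neonates. Igf2 did not share this: both adult libraries were below 2 CPM.

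Of the 12 genes named by size on the neonatal side, 3 encode receptors. Prlr, the prolactin receptor, was at 122 CPM in the injured neonate, 10.1 CPM in the injured adult, 11.3 CPM in the uninjured neonate and 6.05 CPM in the uninjured adult (3.59 [3.44, 3.74] between the injured libraries). The injured neonate was thus the single high library, with a UMI in 17.5% of thinned fibroblasts against 1.76% in the injured adult. Agtr2, the type 2 angiotensin receptor, was high in both neonatal libraries (151 and 152 CPM) and low in both adult ones (11.6 and 1.21 CPM). The ephrin receptor gene Epha5 was at 75.6 CPM in the injured neonate and 3.41 CPM in the injured adult (4.46 [4.22, 4.73]), with 47.7 and 34 CPM in the uninjured libraries. Epha5 was higher in other cells of the injured neonate library, at up to 131 CPM. Nrk, a kinase gene, Egfl6, Rtl3, Nlgn1, Cpm, Col11a2 and Ppp1r9a completed the named genes, with ratios between 2.75 for Ppp1r9a and 4.35 for Nrk. Nlgn1 was at 3.93 with gates set after thinning, and Zim1 and Ppp1r9a at 3.52 and 2.10 without cells with G2M UMIs.

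Secreted growth factors were divided: of 22 measured members, 5 were at least 2-fold higher in the injured neonate and 5 in the injured adult (median 0.07). Fgf10, a mesenchymal growth factor, was at 27.8 and 5.34 CPM (2.38 [2.16, 2.60]), Bmp4 at 22.4 and 5.16 CPM (2.12 [1.90, 2.35]) and Gdf10 at 74.6 and 18.5 CPM (2.01 [1.89, 2.13]). For Gdf10 and Bmp4 the uninjured adult was above the uninjured neonate (-1.21 and -0.49). Without cells with G2M UMIs the ratios of Fgf10, Bmp4 and Gdf10 were 1.74, 1.30 and 1.35.

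**Figure D3:**
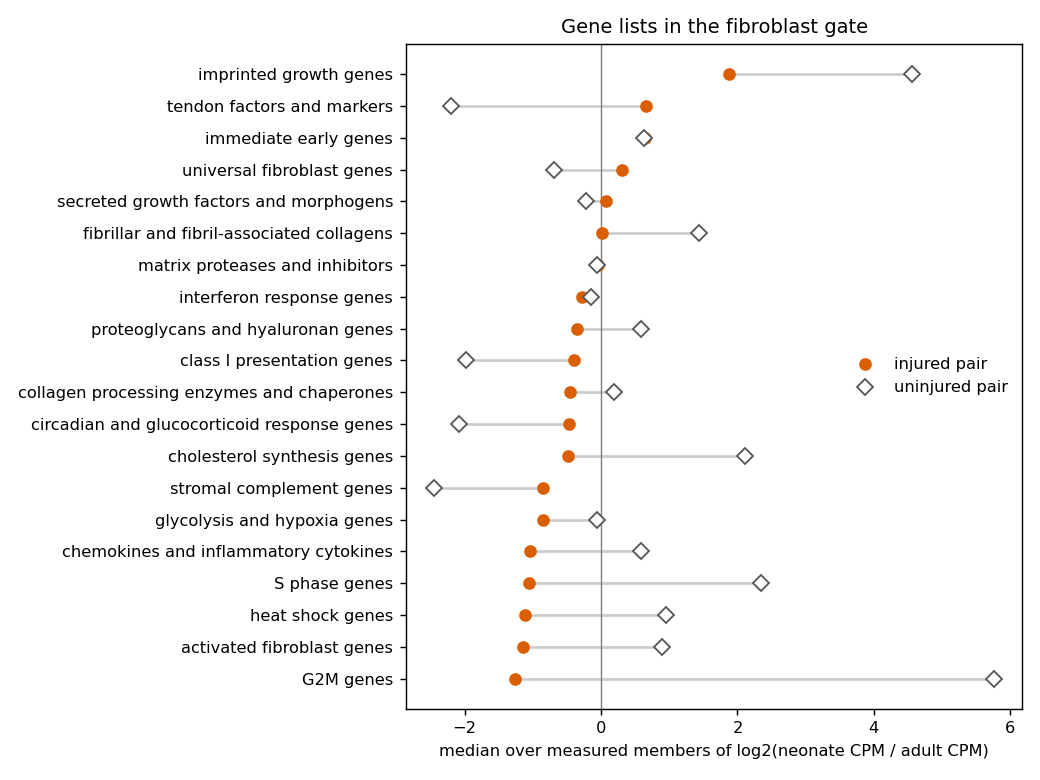
Median log2 ratio of neonate over adult CPM (x axis) for each gene list (y axis) in the fibroblast gate, in the injured pair (filled circles) and in the uninjured pair (open diamonds), over measured members of 1 library per group. The G2M list lies at -1.26 in the injured and 5.77 in the uninjured pair, and imprinted growth genes at 1.87 and 4.55.

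Division genes showed opposite orders of the ages with and without injury. G2M genes, which are made as cells enter mitosis, were at least 2-fold higher in the injured adult for 15 of 18 measured members and in the neonate for 0 (median -1.26), whereas in the uninjured pair 18 of 18 were neonate-high (median 5.77). Under the stricter gates the injured median was -0.89. Mki67, the standard proliferation marker, was at 20.4 CPM in the injured neonate, 76.8 CPM in the injured adult, 72.9 CPM in the uninjured neonate and 1.30 CPM in the uninjured adult. The log2 ratio of the injured libraries was -1.91 [-2.02, -1.80]. Cdk1, the mitotic kinase, was at 16.9, 34.5, 83.4 and 0.515 CPM in that order, with a ratio of -1.03 [-1.17, -0.90]. Cdk1 was just past 2-fold and fell short of it in several alternatives, with the ratio at -0.72 under the stricter gates. Without cells with G2M UMIs the Mki67 ratio was -0.35 and that of Cdk1 0.37, by construction. The motor protein gene Cenpe (-1.90 [-2.05, -1.75]), Hmmr (-1.84 [-2.05, -1.65]) and the kinase gene Plk1 (-1.80 [-2.07, -1.55]) had the same order.

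Counted per cell, 15.3% [13.5, 17.2] of thinned fibroblasts held at least 2 G2M UMIs in the injured adult and 5.04% [4.48, 5.64] in the injured neonate. The shares were 13.3% [12.4, 14.4] in the uninjured neonate and 0.165% [0.0449, 0.421] in the uninjured adult. Without thinning the injured shares were 44.9% and 10.1%, which shows how far depth moves such a count. S phase genes, which copy DNA, were adult-high for 8 of 16 measured members after injury (median -1.06). Leaving out cells with at least 2 G2M UMIs, a cut that removes such cells by construction, brought the S phase median to 0.25.

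Because these genes were higher together in the same library, the 200 bases before the start sites of their genes were read from RefSeq's promoter table (GRCm38.p6, matched by symbol, first entry per gene). The reads themselves were counted on another build. Mki67 and Cdk1 are shown as members with both elements searched for, and Cenpe as one with the CCAAT box alone. Capitals mark TTTGAA, the core of the cell cycle homology region, and CCAAT, on either strand.
Mki67 (chr7:135716380-135716579, reverse strand): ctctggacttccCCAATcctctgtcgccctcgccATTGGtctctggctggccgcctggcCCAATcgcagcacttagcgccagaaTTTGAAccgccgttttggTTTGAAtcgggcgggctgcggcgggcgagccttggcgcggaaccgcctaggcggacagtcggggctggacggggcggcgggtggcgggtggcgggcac
Cdk1 (chr10:69352913-69353112, reverse strand): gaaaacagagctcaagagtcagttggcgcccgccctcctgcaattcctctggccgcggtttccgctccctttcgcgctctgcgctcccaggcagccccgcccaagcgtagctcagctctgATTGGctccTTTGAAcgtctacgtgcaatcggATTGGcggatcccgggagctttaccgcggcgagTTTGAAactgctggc
Cenpe (chr3:135212363-135212562, forward strand): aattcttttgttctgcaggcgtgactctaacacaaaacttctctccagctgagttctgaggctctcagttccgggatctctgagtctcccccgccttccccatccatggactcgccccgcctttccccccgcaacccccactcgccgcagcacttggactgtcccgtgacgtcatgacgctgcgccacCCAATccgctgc

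TTTGAA was found in 7 of the 18 G2M genes with an entry (38.9%), against 12.7% of 27025 genes in the table. CCAAT was found in 16 of 18 (88.9%) against 30% of all genes. Base composition was not matched, and a match is a description of the letters, not of a bound site.

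Some chaperone and glycolysis genes were also higher in injured adult fibroblasts. Among heat shock genes, 7 of 12 were adult-high by 2-fold or more and 0 neonate-high (median -1.12), while without injury 5 of 12 were neonate-high (median 0.95). For the 3 not exceeded in other cells of the library the injured median was -0.15. The small chaperone gene Hspb1 was at 22.6 and 77.4 CPM (-1.77 [-1.88, -1.67]), the endoplasmic reticulum chaperone gene Hspa5 at 305 and 741 CPM (-1.28 [-1.31, -1.25]) and the mitochondrial Hspd1 at 55.2 and 135 CPM (-1.29 [-1.36, -1.22]). Hspd1 was within 2-fold (-0.81) without cells with G2M UMIs. Hspa1b had a ratio of -1.44 [-1.59, -1.29], but reads of Hspa1a and Hspa1b, near-identical copies, may be split between them. Heat shock genes respond to tissue handling too, and the uninjured neonate had the highest Hspa8 level, at 1322 CPM against 554 CPM in the injured neonate and 804 CPM in the injured adult. Handling was not tested. Immediate early genes, which also respond to digestion, leaned the other way: 3 of 15 were neonate-high and 0 adult-high (median 0.64), with Fos at 3628 and 1526 CPM (1.25 [1.24, 1.26]).

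The promoters of Hspb1 and Hspa5, as members with and without a heat shock element, follow from the same table. Capitals mark GAANNTTC, the core of that element, and CCAAT.
Hspb1 (chr5:135887719-135887918, forward strand): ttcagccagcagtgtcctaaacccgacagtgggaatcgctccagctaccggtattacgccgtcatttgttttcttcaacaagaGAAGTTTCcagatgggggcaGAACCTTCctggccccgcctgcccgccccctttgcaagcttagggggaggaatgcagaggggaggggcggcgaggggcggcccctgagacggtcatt
Hspa5 (chr2:34771890-34772089, forward strand): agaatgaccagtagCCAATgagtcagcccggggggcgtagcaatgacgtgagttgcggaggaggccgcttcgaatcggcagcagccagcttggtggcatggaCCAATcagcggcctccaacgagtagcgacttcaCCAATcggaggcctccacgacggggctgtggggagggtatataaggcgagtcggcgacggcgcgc

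GAANNTTC was found in 5 of the 10 heat shock genes with an entry (50%) and in 5.41% of all genes, CCAAT in 5 of 10 (50%) and in 30% of all. Dnaja1 also holds GAANNTTC, and its ratio between the injured libraries was 0.26. Glycolysis genes were adult-high for 6 of 14 measured members and neonate-high for 0 (median -0.85), with Pkm, pyruvate kinase, at 101 and 333 CPM (-1.72 [-1.77, -1.67]) and Eno1, an enolase, at 39.8 and 137 CPM (-1.78 [-1.86, -1.71]).

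Genes of the quiescent fibroblast state had a list median without a firm direction. Of 13 measured universal fibroblast genes, 3 were at least 2-fold higher in the injured neonate and 0 in the adult. All measured genes of the gate gave 5.27% and 5.78%. The list median was 0.31. The median was -0.0039 among Xist cells, 0.051 with each cell weighted equally and -0.23 without cells with G2M UMIs, so it has no firm direction. Without injury 1 of 14 was neonate-high and 5 adult-high (median -0.69). Penk, the enkephalin precursor, was at 53.1 CPM in the injured neonate, 12.8 CPM in the injured adult, 169 CPM in the uninjured neonate and 34.6 CPM in the uninjured adult (2.05 [1.91, 2.19]). Col15a1, a basement membrane collagen, was at 163 and 51.7 CPM (1.65 [1.58, 1.73]). For Col15a1 the injured adult was the low library, since the uninjured ones were at 126 and 118 CPM. Of 12 measured circadian and glucocorticoid response genes, 4 were adult-high and 0 neonate-high (median -0.47). Fkbp5, a chaperone induced by glucocorticoids, was at 22.8 and 60.1 CPM (-1.40 [-1.51, -1.29]), and at 32.9 and 197 CPM in the uninjured neonate and adult. Cholesterol synthesis genes were within 2-fold for each of 12 measured members, although 11 of 13 were neonate-high without injury (median 2.11).

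In the macrophage gate, 275 of 9347 measured genes (2.94%) were at least 2-fold higher in the injured neonate and 616 (6.59%) in the injured adult. Most adult-high genes were higher in other cells of the same library: 130 of the 616 (21.1%) were not exceeded elsewhere. Over all measured genes of the gate, 3474 of 9347 were not exceeded. Of the 8 genes named by size, 1, Arg1, was not exceeded elsewhere. The other 7 included Tnc, a matrix glycoprotein, at 56.1 and 495 CPM in this gate but 440.4 and 1749 CPM in fibroblasts. With doublets removed the adult-high count was 989, and with gates set after thinning it was 367. The genes described next by size are therefore those not exceeded in other cells, a condition added after the values were seen. On the neonatal side 177 of 275 genes (64.4%) met it.

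Resident macrophage genes leaned to the injured neonate, with 5 of 14 measured members at least 2-fold higher and 0 in the adult (median 0.66). The median was 0.38 with gates set after thinning and 0.39 without cells with G2M UMIs. Timd4, the phosphatidylserine receptor of long-lived resident macrophages, was at 24.7 CPM in the injured neonate and 1.27 CPM in the injured adult (4.25 [3.55, 5.12]), and at 22.4 and 46.8 CPM in the uninjured neonate and adult. The injured adult was the low library. Folr2, a folate receptor, was at 343 and 109 CPM (1.65 [1.55, 1.74]), Fcna, a ficolin, at 37 and 7.35 CPM (2.33 [1.99, 2.69]) and the growth factor gene Igf1 at 712 and 301 CPM (1.24 [1.18, 1.30]). The scavenger receptor gene Marco was at 36.8 and 1.98 CPM (4.19 [3.63, 4.87]).

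Genes of antigen presentation by MHC class II went the other way, with 6 of 9 measured members at least 2-fold higher in the injured adult and 0 in the neonate (median -1.74). The class II chain genes H2-Aa and H2-Ab1 were at 395 and 201 CPM in the injured neonate and 1652 and 864 CPM in the injured adult, with ratios of -2.06 [-2.12, -2.01] and -2.10 [-2.18, -2.03]. A UMI of H2-Aa was found in 13.3% of thinned macrophages of the injured neonate and 45.7% of the injured adult, against 0.634% and 5.41% in thinned fibroblasts. Without injury the ratios had the same sign (-2.39 and -2.95). Monocyte genes were divided, with 5 of 10 measured members adult-high and 2 neonate-high. The chemokine receptor gene Ccr2, which marks monocytes that enter from blood, was at 104 and 342 CPM (-1.72 [-1.83, -1.61]), and Ly6c2 at 29.2 and 9.41 CPM (1.63 [1.31, 1.97]). Dendritic cell markers, some of which go with class II genes, summed to 1.89 and 11.1 CPM, and neutrophil markers to 64.3 and 212 CPM. Their part was not tested.

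Inflammatory mediators of macrophages were adult-high for 6 of 17 measured members and neonate-high for 0 (median -0.90). Arg1, an enzyme of arginine use in wound macrophages, was at 3.65 and 60.1 CPM (-4.02 [-4.63, -3.51]), and 0.685% and 7.18% of thinned macrophages held a UMI. Il1rn, the interleukin-1 receptor antagonist, was at 83.2 and 385 CPM (-2.21 [-2.33, -2.09]), with 30.2 and 7.95 CPM in the uninjured neonate and adult. Ptgs2 was at 55.6 and 331 CPM (-2.57 [-2.72, -2.43]) and the chemokine gene Cxcl3 at 9.20 and 57.6 CPM (-2.64 [-3.01, -2.30]). For Il1rn, Ptgs2 and Cxcl3 the uninjured pair had the opposite order (1.89, 3.00 and 2.56). Nrg1, a growth factor of the EGF family, Pdpn, a membrane glycoprotein, and Rnf128 were the remaining adult-high genes, at -2.47, -2.06 and -2.01.

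**Figure D4:**
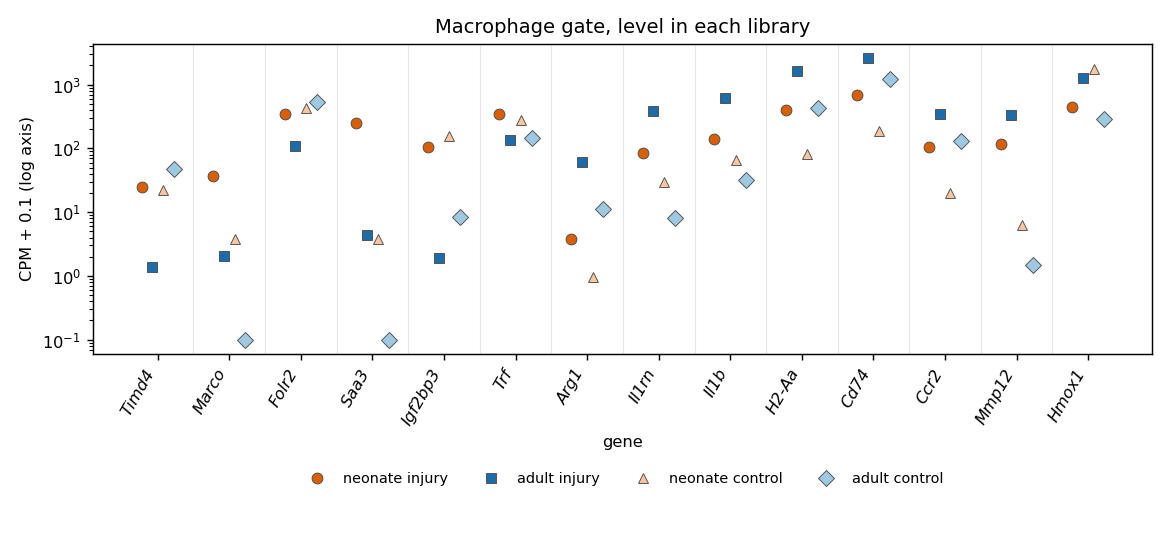
Level of 14 genes in the macrophage gate of each library (y axis, CPM plus 0.1 on a log axis; x axis, genes), 1 point per library with symbols for injured neonate (orange circles), injured adult (blue squares), uninjured neonate (pale triangles) and uninjured adult (pale diamonds). Saa3 stands at 251 CPM in the injured neonate and 4.27 CPM in the injured adult, and Arg1 at 3.65 and 60.1 CPM. Marco and Saa3 had 0 UMIs in the uninjured adult.

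The genes named by size on the neonatal side were led by Saa3, an acute-phase serum amyloid gene, at 251 CPM in the injured neonate, 4.27 CPM in the injured adult, 3.66 CPM in the uninjured neonate and 0 UMIs in the uninjured adult, where the upper bound was 1.72 CPM (5.86 [5.49, 6.30] between the injured libraries). It was held by few cells, 5.78% of thinned macrophages in the injured neonate and 0.751% in the injured adult. Igf2bp3, a fetal RNA-binding protein gene, had a wider base, with 17.8% and 0.25% of thinned macrophages and 103 and 1.82 CPM (5.80 [5.23, 6.50]). It was high in the uninjured neonate as well (154 CPM) and low in the uninjured adult (8.42 CPM). Hpgd, which degrades prostaglandins, was at 114 and 20.9 CPM (2.45 [2.25, 2.65]) and, unlike Igf2bp3, was highest in the uninjured adult (309 CPM). Hdac9 (2.35 [2.23, 2.46]), Plekhg5 (2.21 [2.02, 2.41]) and the cytokine subunit gene Ebi3 (1.88 [1.67, 2.08]) followed.

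Several of these genes differed within the injured neonate library, where 238 of the 1408 macrophages were Y cells and 930 were Xist cells. Saa3 was at 61.5 CPM in the Xist cells and 544 CPM in the Y cells, Marco at 4.54 and 111 CPM, Timd4 at 10.2 and 71.6 CPM and Ly6c2 at 5.11 and 88 CPM. With the comparison kept to Xist cells in both libraries, the ratios were 4.22 for Saa3, 1.24 for Marco, 2.90 for Timd4, 1.55 for Fcna, 1.03 for Folr2 and -0.81 for Ly6c2, whose order thus turned. Igf2bp3 differed little between these cells, at 101 and 129 CPM.

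Lipid and iron handling did not separate the ages as groups. Of 17 lipid-associated macrophage genes, 1 was at least 2-fold higher in the neonate and 2 in the adult (median -0.30): Syngr1 (1.36 [1.25, 1.46]), the elastase Mmp12 (-1.51 [-1.62, -1.41]) and the protease Ctsk (-1.28 [-1.45, -1.11]). Spp1, Trem2 and Gpnmb were within 2-fold. With gates set after thinning Mmp12 and Ctsk were within 2-fold (-0.61 and -0.71). Of 12 iron handling genes, 2 were neonate-high, the transferrin gene Trf (1.35 [1.27, 1.44]) and the iron exporter Slc40a1 (1.22 [1.09, 1.35]), and 2 adult-high, Hmox1, which breaks down heme, at 449 and 1284 CPM (-1.51 [-1.57, -1.46]) and Spic (-1.21 [-1.75, -0.71]), a transcription factor of iron-recycling macrophages. Spic was within 2-fold (-0.77) among Xist cells, and Slc40a1 just so (0.99) without cells with G2M UMIs. The erythroid markers given above were higher in the neonate, the opposite order to Hmox1. Lysosome genes had 1 adult-high member of 15, Ctss (-1.38 [-1.42, -1.35]), near the 6.59% of all measured genes in the gate.

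G2M genes showed no such gap in macrophages as in fibroblasts, with 0 of 14 measured members 2-fold apart in either direction (median 0.01). Over all measured genes of the gate 2.94% were neonate-high and 6.59% adult-high, so a count of 0 lies near these shares. At least 2 G2M UMIs were found in 7.23% [5.89, 8.77] of thinned macrophages in the injured neonate and 8.43% [6.92, 10.2] in the injured adult. The difference between gates was not tested. Heat shock genes were adult-high for 6 of 12 members and neonate-high for 0 (median -1.06), led by Hspb1 (-1.86 [-2.26, -1.49]) and Hsph1 (-1.57 [-1.86, -1.30]). Hspb1 was at -0.84 with gates set after thinning. Interferon response genes held 1 neonate-high member of 15, Gbp2, at 48.9 and 22.1 CPM (1.15 [0.92, 1.38]), whose order turned among Xist cells (-0.41). Glycolysis genes were adult-high for 4 of 14 measured members and neonate-high for 0 (median -0.74).

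In the endothelial gate, 342 of 10239 measured genes (3.34%) were at least 2-fold higher in the injured neonate and 796 (7.77%) in the injured adult. Over all measured genes of the gate, 3765 of 10239 were not exceeded in other cells of the library. Of the adult-high genes 99 (12.4%) were not exceeded, and the genes named by size included Cd74, H2-Aa and Il1b, which macrophages express. The gate was therefore narrowed after the data were seen, to cells that also had Cdh5 and no UMI of Ptprc or C1q. It then held 1392 cells in the injured neonate and 366 in the injured adult, with medians of 6328.5 and 6610 UMIs. Macrophage markers were at 16 and 24.6 CPM and endothelial markers stood at 6158 and 4495 CPM, while fibroblast markers were at 9910 and 13770 CPM. The C1q genes are among the macrophage markers and Cdh5 is among the endothelial ones, so both of these sums were in part set by the added conditions. Cd74 was then at 3.18 and 20.7 CPM, H2-Aa at 1.94 and 18.4 CPM and Il1b at 0.706 and 14.5 CPM. Their levels were low, but their ratios stayed adult-high, at -2.69, -3.22 and -4.29. Other markers rose in the narrower gate. In the injured adult, tenocyte markers went from 1037 to 1569 CPM, against 1521 CPM in its fibroblast gate, and mural markers from 569 to 1142 CPM. In the injured neonate, tenocyte markers went from 313 to 196 CPM and mural markers from 804 to 970 CPM. Values from this narrower gate are given second below, and the part of such RNA in them was not tested.

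Some capillary and junction genes were higher in the injured neonate, fewer of them in the narrower gate. Of 12 capillary and lipid uptake genes, 4 were at least 2-fold higher in the neonate and 1 in the adult (median 0.94), but the median was 0.13 in the narrower gate. Tcf15, a transcription factor of capillary cells that take up fatty acids, was at 184 and 41 CPM (2.16 [2.04, 2.29]), or 241 and 106 CPM (1.18 [1.03, 1.33]) in the narrower gate. Gpihbp1, which holds lipoprotein lipase on capillaries, was at 407 and 113 CPM (1.85 [1.77, 1.92]), or 528 and 258 CPM (1.03 [0.93, 1.13]). Both stayed past 2-fold. The fatty acid binding protein gene Fabp4 did not, at 1.37 [1.35, 1.39] and then 0.55 [0.53, 0.58]. Timp4, the list's adult-high member, was at -1.52 [-1.70, -1.34] and then -2.63 [-2.83, -2.44].

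Cldn5, the tight junction protein of endothelium, was at 509 CPM in the injured neonate, 159 CPM in the injured adult, 732 CPM in the uninjured neonate and 669 CPM in the uninjured adult (1.68 [1.61, 1.74] between the injured libraries). The injured adult was the low library, also in the narrower gate (1.47 [1.37, 1.58]). Of 17 junction and receptor genes, Cldn5 and Egfl7 (1.28 [1.23, 1.33], then 0.84 [0.77, 0.91]) were the 2 at least 2-fold higher in the neonate, and 0 were adult-high. The list's median turned from 0.23 to -0.43 in the narrower gate. The arterial connexin gene Gja4 was at 1.83 [1.65, 2.01] and then 1.34 [1.09, 1.60]. Sox11, a developmental transcription factor, was at 75.1 and 10.4 CPM (2.85 [2.61, 3.10]), and 3.39 [2.90, 3.96] in the narrower gate. Nrk, also named by size on the neonatal side, was at 117 CPM in this gate and up to 394 CPM in other cells of the same library.

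Of 14 measured tip cell genes, which mark sprouting vessels, 3 were neonate-high and 2 adult-high (median 0.22). The median turned to -0.09 in the narrower gate and to -0.24 with gates set after thinning. Col4a1, a basement membrane collagen, was at 2579 and 1193 CPM (1.11 [1.09, 1.14]) and fell short of 2-fold in the narrower gate (0.68 [0.64, 0.71]). Angpt2, the angiopoietin that loosens vessels, was at 37.7 and 104 CPM (-1.46 [-1.60, -1.32]) and -1.59 [-1.77, -1.41] in the narrower gate. With gates set after thinning Angpt2 was at -2.21 and Sox11 at 3.66. Of 10 venous and activated endothelial genes, 3 were adult-high and 0 neonate-high (median -0.39, and -1.40 in the narrower gate). Selp, the selectin that slows leukocytes on the vessel wall, was at 77.9 and 209 CPM (-1.42 [-1.52, -1.33]), then -2.34 [-2.45, -2.24]. Lrg1, a secreted glycoprotein of vessels, was at -1.89 [-2.08, -1.72] and then -2.52 [-2.74, -2.32]. Both were higher in the uninjured adult than in the uninjured neonate as well (-3.00 and -4.31).

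**Figure D5:**
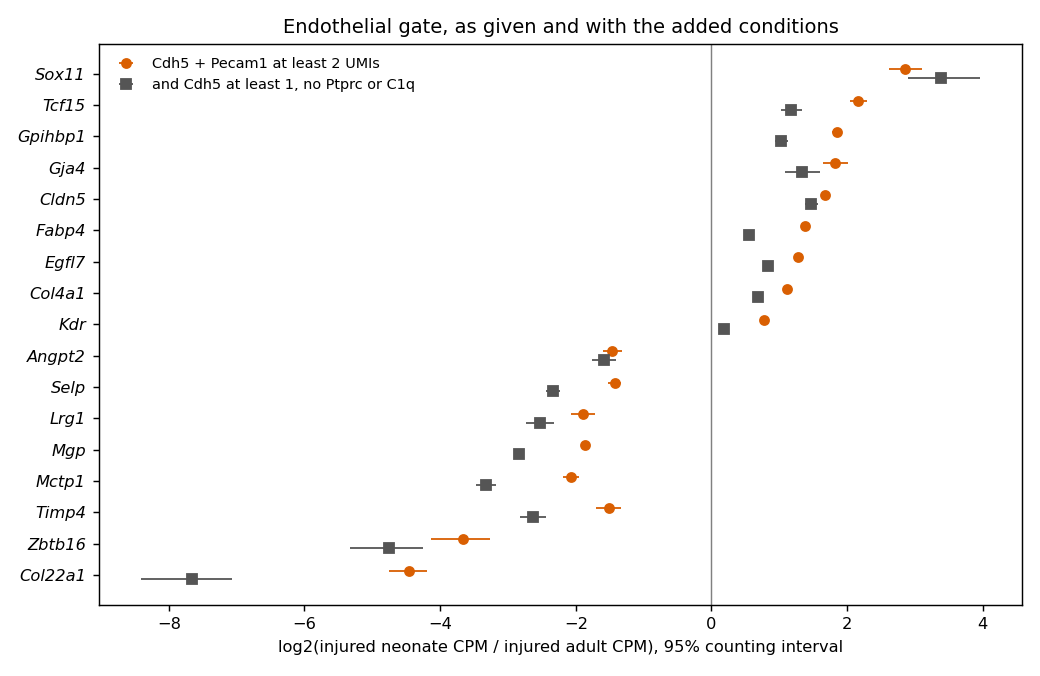
Log2 ratio of injured neonate over injured adult CPM (x axis) for 17 genes (y axis) in the endothelial gate (orange circles) and in the narrower gate with Cdh5 and no Ptprc or C1q UMIs (grey squares), with 95% counting intervals, 1 library per group. Tcf15, Gpihbp1, Gja4 and Cldn5 stay above 1 in both, Fabp4, Egfl7 and Col4a1 drop below 1, and the adult-high genes lie further left in the narrower gate.

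Of the 8 genes named by size on the adult side, Col22a1 had the lowest ratio, at 6.92 and 153 CPM (-4.46 [-4.76, -4.19]), and 1.76 and 367 CPM (-7.67 [-8.42, -7.07]) in the narrower gate. In the uninjured libraries it was at 7.32 CPM in the neonate and 398 CPM in the adult. In fibroblasts Col22a1 had the opposite order after injury, as given above. A UMI of Col22a1 was found in 0.456% of thinned barcodes of the endothelial gate in the injured neonate and 6.63% in the injured adult, against 0.228% and 1.59% in the macrophage gate. Tenocyte markers (Tnmd, Scx, Thbs4, Fmod) moved with it, at 313 and 1037 CPM in the endothelial gate and 196 and 1569 CPM in the narrower gate. Thbs4 led them in the injured adult (112 and 734 CPM in the endothelial gate), none of the 4 was at 0 there, and their part in the Col22a1 values was not tested. The matrix inhibitor of calcification Mgp (-1.86 [-1.92, -1.80], then -2.83 [-2.91, -2.76]), Mctp1 (-2.08 [-2.20, -1.96], then -3.32 [-3.47, -3.18]) and the interferon-induced Rsad2 (-1.73 [-1.93, -1.53], then -2.67 [-2.92, -2.43]) were adult-high in both gates and adult-high without injury (-4.05, -3.41 and -2.08). Zbtb16, a glucocorticoid-responsive transcription factor, was at -3.67 [-4.13, -3.26] in endothelial cells, -2.20 [-2.48, -1.94] in fibroblasts and -1.24 [-1.82, -0.73] in macrophages. In macrophages it was within 2-fold with gates set after thinning (-0.65), with doublets removed (-0.76) and without barcodes in several gates (-0.78).

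The age differences of endothelial cells and macrophages were also set beside those without injury, as for fibroblasts. In the uninjured pair 954 of 10216 endothelial genes (9.34%) were neonate-high and 1303 (12.8%) adult-high, and in macrophages 1124 (11.8%) and 1027 (10.8%) of 9502. The macrophage gates of the uninjured neonate and adult summed to 4643259 and 2138668 UMIs, against 7936506 and 12645870 after injury. Fewer UMIs make ratios less precise, and the part of this in the shares was not tested. Among genes measured in both pairs, 111 of the 305 neonate-high endothelial genes after injury (36.4%) were neonate-high without it, which is 13.6% of the 816 without injury. For adult-high endothelial genes these were 183 of 523 (35%) and 17.2% of 1063. In macrophages 100 of 226 neonate-high genes (44.2%) were shared, 11% of the 912 without injury, and 117 of 450 adult-high genes (26%), 14.2% of the 825 without injury. The opposite order without injury, by 2-fold or more, was found for 121 of these 450 macrophage genes (26.9%) and 88 of the 523 adult-high endothelial genes (16.8%). On the neonatal side it was found for 24 of 226 (10.6%) and 23 of 305 (7.54%). Of the 8767 macrophage and 9583 endothelial genes measured in both pairs, 912 and 816 were neonate-high without injury and 825 and 1063 adult-high. The opposite shares on the neonatal side are thus near or below those of all genes.

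The median of endothelial G2M genes was within 2-fold (-0.27, and 0.34 in the narrower gate). Of 20 members 1, Plk1 (-1.43 [-1.79, -1.09], then -0.93 [-1.47, -0.37]), was adult-high and 0 neonate-high. Over all measured genes of the gate the shares were 7.77% and 3.34%, so this count does not set division genes apart from the rest. At least 2 G2M UMIs were found in 14.6% [13, 16.4] of thinned endothelial cells in the injured neonate and 14.7% [12.4, 17.1] in the injured adult, against 35.1% and 0.665% in the uninjured neonate and adult. Heat shock genes were adult-high for 6 of 12 members and neonate-high for 0 (median -0.81), as in the other gates, which come from the same libraries. Hspa5 was at 232 and 641 CPM (-1.46 [-1.52, -1.41]).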

How the data were processed

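As deposited, each matrix gives a count of UMIs for every gene and barcode, written by Cell Ranger 8.0.1 according to their headers (per the file headers). The submitters' processing notes name GRCm39 as the build. The matrices list 33696 genes. Of symbols listed more than once (26) the earliest entry stands for the gene in lists and gates, and 1 gene of the lists is absent from the files. The label of each sample gave its age and injury. The file totals were 100169054 UMIs in the injured neonate and 71623116 in the injured adult library, which sets the precision that the intervals give.

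UMIs were summed per gate with Python 3.11.15, numpy 2.4.6, pandas 2.3.3 and scipy 1.17.1. CPM intervals are exact Poisson, share intervals exact binomial (Clopper-Pearson), and log2 ratios add 0.5 counts, with intervals from an exact binomial split of the pair's UMIs. UMIs of 1 cell are not independent draws across animals, so these intervals cover counting error only. Doublets were kept. As an alternative, the highest Scrublet scores (scanpy 1.11.5) were removed at 0.8% per 1000 barcodes. The ratios and their intervals were checked on simulated data, Poisson counts with known 2-fold and 4-fold changes. Such counts follow the model that the intervals assume. Gating, thinning, doublet removal and RNA of other cells were not simulated.

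Genes were named by a rule. At each end of the ratios it took 12 genes in the fibroblast gate and 8 in each of the others, where the higher library reached 50 CPM. It added the 6 (fibroblast) or 4 (others) largest differences from the uninjured age ratio in each direction, and, per list, the 4 members furthest from 0. Left out were mitochondrial, ribosomal protein and hemoglobin genes, predicted genes, Xist, Tsix, genes of the Y, gate genes, markers of other types and genes over 10 times higher in other cells of the library. The genes compared and the lists were chosen with earlier results of these data known. Alternatives changed the scaling, cell weights, expression and barcode filters, pseudocount, gates, doublets, cycling cells and Xist or Y-linked cells. Endothelial conditions and the requirement that a gene be not exceeded elsewhere were added after seeing the data.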

Additional observations from a re-analysis of the deposited data

How the results depend on the processing

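No paired analysis was possible because each group held 1 library. Counts of genes at least 2-fold higher are given here with the neonate before the adult. With at least 50 CPM they were 165 and 235 (fibroblast), 89 and 262 (macrophage) and 123 and 305 (endothelial). With no CPM filter they were 4866 and 3186, 3105 and 2621, and 3656 and 4119. With genes not higher in other cells of the library they were 215 and 239, 177 and 130, and 194 and 99. The macrophage adult count was 367 with gates after thinning, 989 with doublets removed and 407 with cycling cells removed. The fibroblast share in the neonate was 41.5% with the stricter barcode filter, 22.8% with stricter gates, 22.3% after thinning, 37.4% with doublets removed, 37.9% without barcodes in several gates and 41.0% among Xist cells. In the adult it was 35.0%, 24.4% and 15.4% under the earliest 3 of these and 35.6% among Xist cells. The macrophage share in the neonate was 8.50% with stricter gates, 8.31% after thinning, 8.83% without barcodes in several gates and 8.59% among Xist cells. In the adult it was 23.3%, 20.3% and 24.0% under the earliest 3 of these and 28.4% with the stricter barcode filter. The endothelial share in the neonate was 9.38% with stricter gates, 9.08% after thinning, 12.3% with doublets removed, 11.1% without barcodes in several gates, 12.3% among Xist cells and 9.35% with Cdh5 and no leukocyte UMIs. In the adult it was 15%, 12.6%, 16.3% and 7.91% with stricter gates, after thinning, without barcodes in several gates and with Cdh5 and no leukocyte UMIs. Among medians and ratios of 2-fold or more, signs turned in the fibroblast gate without cycling cells for the S phase median (0.25), Cdk1 (0.37), Birc5 (0.015), H1f5 (0.24), Cenpe (0.90) and Plk1 (0.43). In the macrophage gate they turned for Dlk1 (-0.0092) with doublets removed and for Ly6c2 (-0.81) and Gbp2 (-0.41) among Xist cells. The removal of cycling cells takes out G2M UMIs by construction and was made at each library's own depth. For the other alternatives the cause was not tested. Counting those within 2-fold as well, the sign differed from the reported one in 55 of 726 list medians and 29 of 3060 named gene values; 54 and 21 of these were within 2-fold as reported.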

Other observations

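The injured neonate library allowed Y cells to be set beside Xist cells, 842 and 4444 in the fibroblast gate and 238 and 930 in the macrophage gate. The medians were 6767.5 and 7410.5 UMIs in the fibroblast gate and 5279 and 5262.5 in the macrophage gate. These are cells of 1 library of an unstated number of mice, so animal and sex cannot be told apart, and the genes shown were chosen after their values were seen. Ratios here are log2 of Y over Xist cells. In macrophages the interferon-induced Gbp2 was at 119.5 and 17 CPM (2.81 [2.43, 3.20]), the class I gene H2-Q7 at 185 and 43.3 CPM (2.09 [1.83, 2.35]), the lysozyme gene Lyz1 at 121 and 4.16 CPM (4.83 [4.22, 5.57]) and Retnla, a gene of alternatively activated macrophages, at 329 and 46.2 CPM (2.83 [2.60, 3.06]). The iron exporter Slc40a1 went the other way, at 48.7 and 201 CPM (-2.03 [-2.42, -1.69]), as did Spp1 at 351 and 853 CPM (-1.28 [-1.42, -1.15]).

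Fibroblasts of the same library differed as well. The complement gene C3 was at 59.5 CPM in Y and 7.66 CPM in Xist cells (2.96 [2.73, 3.19]), and Cfb at 45.7 and 11.9 CPM (1.94 [1.71, 2.16]). Kif26b was at 3.66 and 19.3 CPM (-2.37 [-3.09, -1.79]), Brinp3 at 15.5 and 54.9 CPM (-1.82 [-2.15, -1.53]) and the collagen gene Col11a1 at 304 and 779 CPM (-1.36 [-1.42, -1.29]). C3 and Cfb were thus higher, and Kif26b, Brinp3 and Col11a1 lower, in the Y cells. In the comparison of Xist cells alone between the injured libraries, the ratios of neonate over adult were -3.87 for C3 and -3.12 for Kif26b.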
